A study of Arabidopsis thaliana with 15 samples.

Results

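The genes described here are 50 nuclear genes for the light-harvesting antennae, the photosystem cores, the mobile electron carriers and the ATP synthase of the chloroplast of Arabidopsis thaliana. They were taken by locus identifier from the deposited comparison between syd-5 and WT seedlings, a table of 33201 genes of which the authors tested 19868. All 50 were found and all 50 had been tested. By complex they are 6 LHCA genes for the antenna of photosystem I, 14 LHCB genes for the antenna of photosystem II, 12 PSA genes, 10 PSB genes and 8 genes for carriers and ATP synthase. The RefSeq gene table holds all 50 loci, under symbols or synonyms that name the same proteins.

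The RNA came from 14-day-old whole seedlings of syd-5 in the Col-0 background (3 libraries) and of wild-type Col-0, called WT (3 libraries), all grown on plates in long days. SYD, for SPLAYED, is a motor subunit of SWI/SNF complexes, which reposition nucleosomes, and syd-5 was the only mutant line from which RNA was sequenced. The series has 15 libraries, and the 9 of chromatin immunoprecipitation and input were not analysed here. The authors' table gives 1 expression value per gene and genotype, read as FPKM (fragments scaled by transcript length and sequencing depth), with no value per library, so that no SD, interval or depth can be given. Throughout, a rise, a fall or a call means that the authors' deposited table has a q of 0.05 or less for the gene. SYD itself stood at 2.53 FPKM in syd-5 and at 13.1 FPKM in WT, on a span that another gene shares.

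In oxygenic photosynthesis, chlorophyll proteins of the antennae pass light energy to the reaction centres of photosystem II, which takes electrons from water, and of photosystem I, which lifts them to ferredoxin. The cytochrome b6f complex and plastocyanin carry electrons between the photosystems, ferredoxin-NADP reductase makes NADPH, and the proton gradient drives ATP synthase. The reaction centre proteins themselves are encoded in the plastid genome, whereas the antennae and most of the smaller and peripheral subunits are encoded by nuclear genes such as these, which are strongly expressed in green leaf tissue and respond to light.

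These genes were higher in syd-5 almost throughout, most of all those of the antennae. Of the 50 genes 40 rose, none fell and 10 were not called. Over all tested genes 14.1% rose and 18.0% fell. The only ratio below 1 was that of LHCB4.3, which was also the only one of the 50 with an unadjusted p of at most 0.05 towards lower expression (p = 0.0171 in the authors' deposited table). The median log2 fold change of the 50 genes was 0.62, against -0.02 over the tested genes with a finite ratio. Abundant genes in general leaned upwards in this comparison. Among the 1599 other tested genes whose 2 values averaged at least 100 FPKM, a limit chosen after the values were seen, 31.5% rose and 13.8% fell, and their median log2 fold change was 0.17. The same average had a median of 1474 FPKM over the 50 genes, and genes matched to them in level were not compared. Of the 50 ratios, 49 were above 1 on the deposited scale. Equal FPKM sums shift every log2 ratio by -0.08, and setting the median of all tested genes to 0 shifts it by 0.02. The log2 ratio nearest to 0 was 0.19 for LHCA5, and a pseudocount cannot change a sign. The count of 49 therefore could not change under these settings and is no check. All 50 genes are used here because of what they encode, but they were picked with earlier results of these data known, and the counts describe them without testing them as a group.

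**Figure D1:**
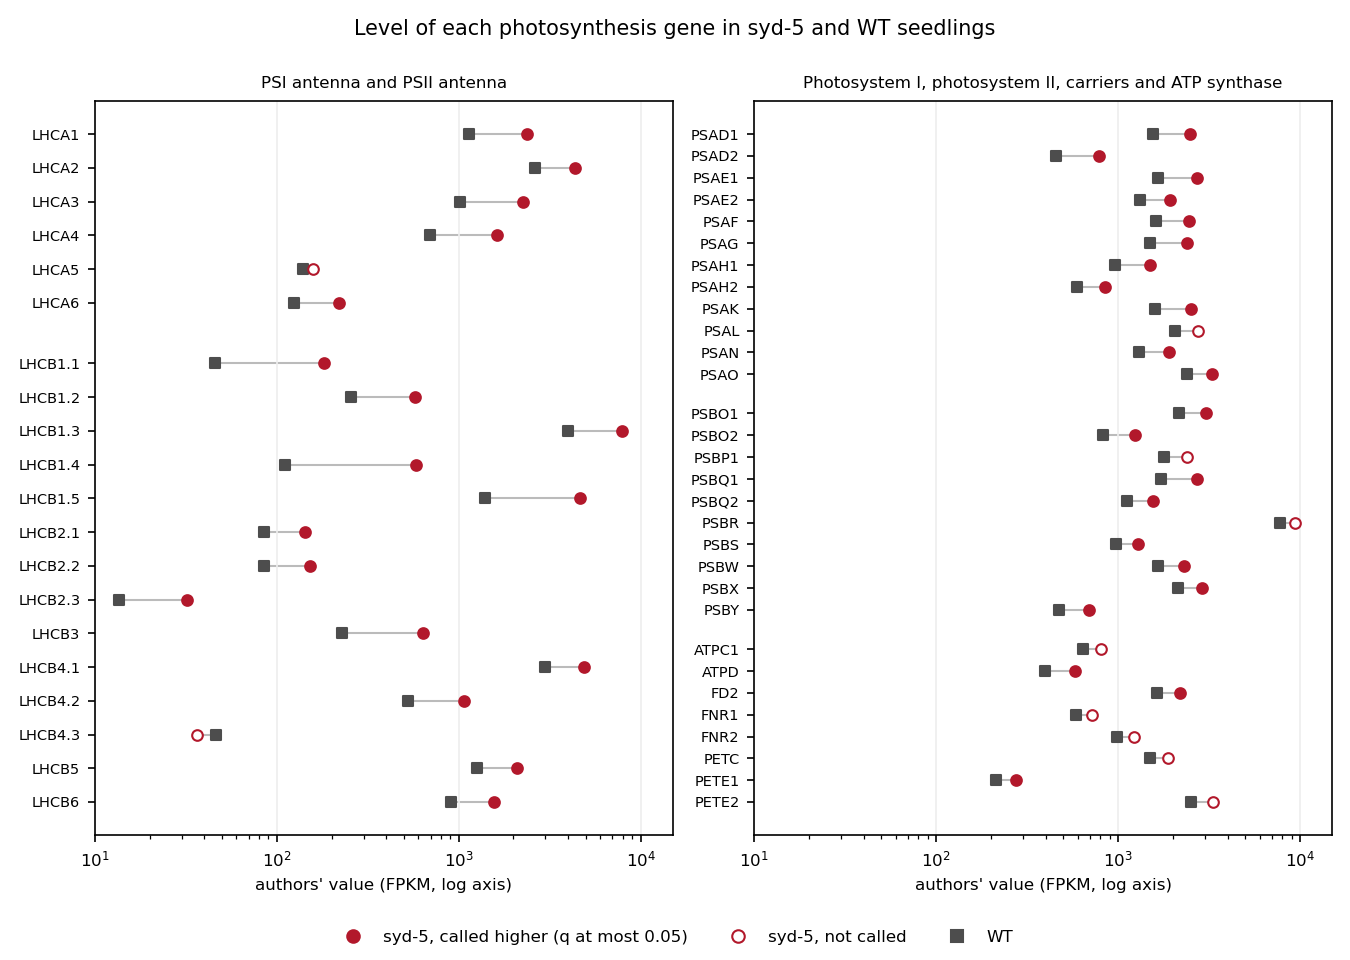
Authors' value of each of the 50 genes (FPKM, logarithmic x axis) in syd-5 (circles, filled where called higher) and in WT (squares), 1 row per gene, antenna genes on the left and core, carrier and ATP synthase genes on the right. The circle lies to the right of the square in 49 of 50 rows, the exception being LHCB4.3, and the longest distances belong to LHCB1.4 and LHCB1.1.

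Together the 50 genes made up 10.5% of the summed FPKM of all listed genes in syd-5 and 7.38% in WT. Of the 100 most abundant genes, 33 in syd-5 and 31 in WT belonged to this set. Summed over the 20 antenna genes, the level was 35463 FPKM in syd-5 and 17654 FPKM in WT, a ratio of 2.01. The 22 PSA and PSB genes summed to 53207 FPKM in syd-5 and to 37705 FPKM in WT, a ratio of 1.41. Antenna transcripts thus stood to core transcripts as 0.667 to 1 in syd-5 and as 0.468 to 1 in WT. With 1 value per genotype, this shift in proportion has no replicate check. The antenna sum also holds near-identical copies, for which the counting of shared reads is not stated. In RNA from whole seedlings, a larger share of cells that express these genes and more of their RNA per cell cannot be told apart.

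**Figure D2:**
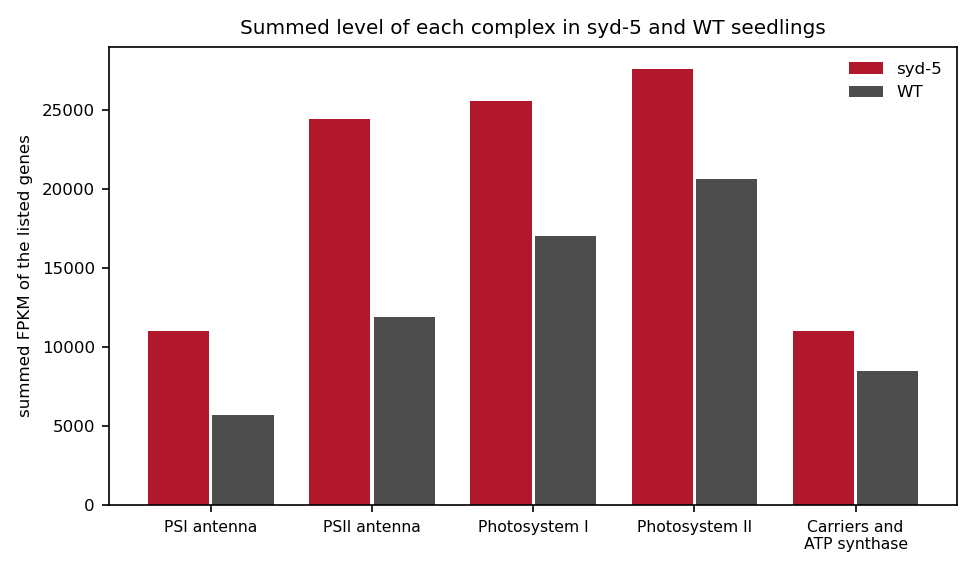
Summed FPKM (y axis, from 0) of the listed genes of each complex in syd-5 (left bar) and WT (right bar). The antenna of photosystem II sums to 24430 FPKM in syd-5 and 11926 FPKM in WT, whereas the carriers and ATP synthase sum to 10999 FPKM in syd-5 and 8489 FPKM in WT.

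The medians of the complexes formed a graded order. The median log2 fold change was 1.00 for the antenna of photosystem II, 0.94 for the antenna of photosystem I, 0.62 for photosystem I, 0.48 for photosystem II and 0.36 for the carriers and ATP synthase. The counts that rose were 13 of 14, 5 of 6, 11 of 12, 8 of 10 and 3 of 8 in the same order. The smallest rise among the antenna genes, 0.71 on the log2 scale for LHCB4.1, was exceeded by 1 of the 22 core genes, PSAD2. All 10 members that rose at least 2-fold were antenna genes, while 3.29% of all tested genes rose as much. The ranges of all complexes overlap. Those of the antennae, -0.35 to 2.38 for photosystem II and 0.19 to 1.23 for photosystem I, cover the ranges of both cores and of the carriers. The range of the photosystem II core, 0.28 to 0.65, covers that of the carriers and ATP synthase, 0.28 to 0.55. Genes are not replicates of a complex, and the differences between complexes were not tested.

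**Figure D3:**
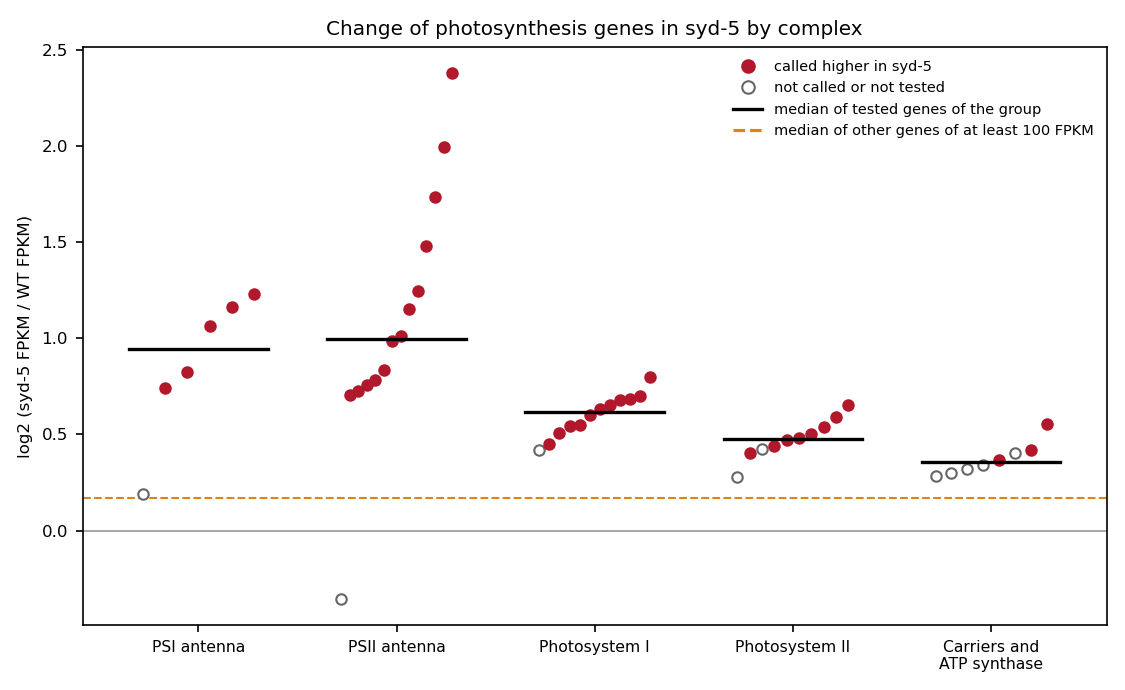
Log2 ratio of syd-5 to WT FPKM (y axis) for each gene by complex, sorted within a complex, filled where called higher, with the median of each complex as a bar and the median of other tested genes of at least 100 FPKM as a dashed line. The medians step down from 1.00 and 0.94 in the antennae to 0.36 in the carriers and ATP synthase, all above the dashed line at 0.17.

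The main antenna of photosystem II is a trimer of LHCB1, LHCB2 and LHCB3 proteins, and all 9 of its genes rose. The family with the highest level was LHCB1, whose 5 genes summed to 13852 FPKM in syd-5 and to 5787 FPKM in WT. LHCB1.4 (AT2G34430, TAIR10 chromosome 2, 14524756 to 14525763) had 579.9 FPKM in syd-5 and 111.7 FPKM in WT, the largest change of the 50 genes at 5.19-fold (q = 0.000351 in the authors' deposited table). LHCB1.1 (AT1G29920, chromosome 1, 10474784 to 10475959) had 182 FPKM in syd-5 and 45.7 FPKM in WT, a ratio of 3.98. LHCB1.5 (AT2G34420, chromosome 2, listed span 14518406 to 14523568, shared with another gene) had 4626 FPKM in syd-5 and 1389 FPKM in WT, a ratio of 3.33. These 3 genes led the whole set. LHCB1.2 reached 572.4 FPKM in syd-5 and 257.4 FPKM in WT. LHCB1.3, the most abundant antenna gene, reached 7891 FPKM in syd-5 and 3984 FPKM in WT, the smallest ratio of the family at 1.98.

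The LHCB1 genes lie in 2 groups of neighbours. LHCB1.1, LHCB1.2 and LHCB1.3 fall within 6.77 kb of chromosome 1 and rose 3.98-, 2.22- and 1.98-fold, and LHCB1.4 and LHCB1.5 fall within 7.36 kb of chromosome 2 and rose 5.19- and 3.33-fold. The 7.36 kb include the listed span of LHCB1.5, which another gene shares, so that the pair itself may cover less. LHCB1.3 held 57.0% of the family's FPKM in syd-5 and 68.8% in WT, and LHCB1.5 held 33.4% in syd-5 and 24.0% in WT. The LHCB1 genes are near-identical copies, so that reads can be divided wrongly among them and single values and shares are uncertain. The family sum was 2.39 times as high in syd-5. How reads that match several copies were counted is not stated, so that the sum is uncertain too.

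The 3 LHCB2 genes encode an LHCII protein that is phosphorylated when antenna moves between photosystems. They summed to 327.8 FPKM in syd-5 and 183.8 FPKM in WT, far below the sum of the LHCB1 genes. LHCB2.1 had 142.9 FPKM in syd-5 and 84.6 FPKM in WT. LHCB2.2 had 152.7 FPKM in syd-5 and 85.6 FPKM in WT, and LHCB2.3 had 32.1 FPKM in syd-5 and 13.5 FPKM in WT. All 3 rose, and the family sum was 1.78 times as high in syd-5. These genes too are close copies and their single values are uncertain. If reads that match several copies were left out, the family sum would be too low as well. LHCB3, the remaining gene of the trimer proteins, had 633.5 FPKM in syd-5 and 227.3 FPKM in WT, a ratio of 2.79 on a span shared with another gene.

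The monomeric antenna proteins LHCB4, LHCB5 and LHCB6 connect the trimers to the core of photosystem II, and 4 of their 5 genes rose. LHCB4.1 had 4855 FPKM in syd-5 and 2977 FPKM in WT, and LHCB4.2 had 1067 FPKM in syd-5 and 529.5 FPKM in WT. LHCB4.3 (AT2G40100), the weakly expressed member of that family, had 36.3 FPKM in syd-5 and 46.4 FPKM in WT and missed the call at a log2 change of -0.35 (q = 0.0527 in the authors' deposited table). Its paralogs thus stood above WT while it stood below. LHCB5 had 2098 FPKM in syd-5 and 1268 FPKM in WT, and LHCB6, with a shared span, had 1560 FPKM in syd-5 and 907.2 FPKM in WT. The median log2 fold change was 0.73 for these 5 genes and 1.25 for the 9 genes of the trimer.

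The antenna of photosystem I is a belt of LHCA1 to LHCA4, all of whose genes rose. LHCA4 (AT3G47470, chromosome 3, 17486765 to 17495033) had the largest ratio, with 1623 FPKM in syd-5 and 692.2 FPKM in WT (2.35-fold), on a span shared with a gene of under 2 FPKM. LHCA3 had 2265 FPKM in syd-5 and 1013 FPKM in WT, and LHCA1 had 2385 FPKM in syd-5 and 1141 FPKM in WT. LHCA2, the most abundant of the belt, had 4381 FPKM in syd-5 and 2619 FPKM in WT, the smallest ratio of the 4 at 1.67. LHCA5 and LHCA6 are minor proteins that join photosystem I to the chloroplast NDH complex. LHCA6 rose, with 220.3 FPKM in syd-5 and 124.6 FPKM in WT. LHCA5 was not called, with 158.9 FPKM in syd-5 and 139.1 FPKM in WT (q = 0.327 in the authors' deposited table).

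Of the 12 genes of photosystem I 11 rose, and their log2 changes lay in a narrow band from 0.42 to 0.80. PSAD and PSAE form the stromal docking site of ferredoxin, and all 4 of their genes rose. PSAD2 (AT1G03130, chromosome 1, 753307 to 754198) had 789.5 FPKM in syd-5 and 454.3 FPKM in WT, the largest ratio of the complex at 1.74. Its paralog PSAD1 had 2486 FPKM in syd-5 and 1548 FPKM in WT. PSAE1 had 2703 FPKM in syd-5 and 1664 FPKM in WT, and PSAE2, with a shared span, had 1936 FPKM in syd-5 and 1328 FPKM in WT. On the lumenal side, PSAF and PSAN take part in the reaction with plastocyanin. PSAF had 2454 FPKM in syd-5 and 1616 FPKM in WT, and PSAN had 1909 FPKM in syd-5 and 1306 FPKM in WT, and both rose.

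The remaining PSA genes encode subunits at the edges where antenna binds. PSAG and PSAK flank the LHCA belt. PSAG had 2392 FPKM in syd-5 and 1495 FPKM in WT, and PSAK had 2523 FPKM in syd-5 and 1602 FPKM in WT. PSAH, PSAL and PSAO form the docking site for mobile LHCII. PSAH1, on a shared span, had 1501 FPKM in syd-5 and 966.9 FPKM in WT. PSAH2 had 847.4 FPKM in syd-5 and 595.5 FPKM in WT, and PSAO had 3288 FPKM in syd-5 and 2405 FPKM in WT. All 5 of these genes rose. PSAL, with 2764 FPKM in syd-5 and 2066 FPKM in WT, had the smallest ratio of the complex at 1.34 and just missed the call (q = 0.0540 in the authors' deposited table).

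Of the 10 genes of photosystem II 8 rose, and the log2 changes of all 10 were 0.28 to 0.65. PSBO, PSBP and PSBQ are the extrinsic proteins of the oxygen-evolving complex, and 4 of their 5 genes rose. PSBQ1 (AT4G21280, chromosome 4, 11334402 to 11335773) led the complex, with 2715 FPKM in syd-5 and 1729 FPKM in WT (1.57-fold). Its paralog PSBQ2 had 1563 FPKM in syd-5 and 1118 FPKM in WT. PSBO1 had 3060 FPKM in syd-5 and 2160 FPKM in WT, and PSBO2 had 1247 FPKM in syd-5 and 826.8 FPKM in WT. PSBP1 was not called, with 2395 FPKM in syd-5 and 1782 FPKM in WT (q = 0.0664 in the authors' deposited table), although its log2 change of 0.43 exceeded the 0.40 of PSBS, which was called.

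Among the other PSB genes, PSBR, which supports the assembly of the oxygen-evolving complex, was the most abundant of the 50 in both genotypes. It had 9431 FPKM in syd-5 and 7782 FPKM in WT, on a shared span, and was not called at a log2 change of 0.28 (q = 0.346 in the authors' deposited table). PSBS, the sensor protein of non-photochemical quenching, had 1294 FPKM in syd-5 and 979.4 FPKM in WT, the smallest called change of the complex. The small membrane subunits PSBW, PSBX and PSBY all rose. PSBW had 2309 FPKM in syd-5 and 1665 FPKM in WT. PSBX had 2907 FPKM in syd-5 and 2142 FPKM in WT, and PSBY had 691.1 FPKM in syd-5 and 475.6 FPKM in WT.

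The carriers and the ATP synthase had the smallest median of the complexes, and 3 of these 8 genes rose. This share, 37.5%, was near the 31.5% that rose among tested genes of at least 100 FPKM outside the set. PETC, the Rieske iron-sulphur protein of the cytochrome b6f complex, had 1880 FPKM in syd-5 and 1507 FPKM in WT and was not called. Plastocyanin is encoded by PETE1 and PETE2. PETE1, the minor gene, rose, with 274 FPKM in syd-5 and 212.3 FPKM in WT. PETE2, which held 92.4% of the pair's FPKM in syd-5 and 92.2% of it in WT, had 3324 FPKM in syd-5 and 2515 FPKM in WT and was not called (q = 0.0910 in the authors' deposited table). The log2 changes of this pair, 0.37 and 0.40, were near each other on either side of the call.

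Downstream of photosystem I, FD2, the main leaf ferredoxin gene, rose, with 2192 FPKM in syd-5 and 1639 FPKM in WT. The 2 genes for leaf ferredoxin-NADP reductase were not called. FNR1, with a shared span, had 714.9 FPKM in syd-5 and 588.2 FPKM in WT, and FNR2 had 1223 FPKM in syd-5 and 992.5 FPKM in WT. Of the ATP synthase genes, ATPD, for the delta subunit, rose, with 580.7 FPKM in syd-5 and 395.7 FPKM in WT (1.47-fold, q = 0.000662 in the authors' deposited table). ATPC1, for the gamma subunit, had 810.3 FPKM in syd-5 and 638.8 FPKM in WT and was not called (q = 0.105 in the authors' deposited table). ATPD had the largest ratio of the 8 genes and was the only one above the median of the core genes.

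Outside the LHCB families, the ratios of paralogs lay close together. In the 7 families of 2 genes (PSAD, PSAE, PSAH, PSBO, PSBQ, PETE and FNR), the log2 changes of the pair differed by 0.02 to 0.17, and the more abundant gene was the same in both genotypes. PSAD1 held 75.9% of its pair in syd-5 and 77.3% in WT. PSAE1 held 58.3% in syd-5 and 55.6% in WT, and PSBQ1 held 63.5% in syd-5 and 60.7% in WT. The spread was wider in the antenna, at 1.39 among the LHCB1 genes, 1.36 among the LHCB4 genes and 0.49 among the LHCB2 genes. In LHCB4 it came from LHCB4.3, which held 0.609% of the family in syd-5 and 1.31% in WT.

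**Figure D4:**
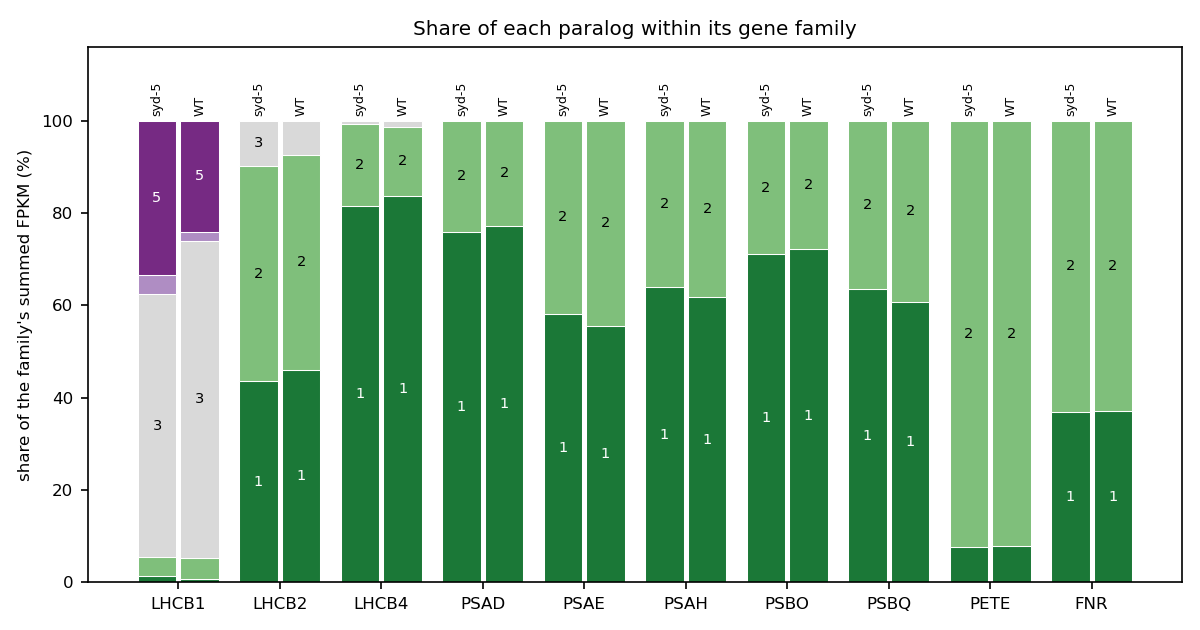
Share of each paralog in the summed FPKM of its family (y axis, %), syd-5 on the left and WT on the right of each pair of bars, with the paralog number inside segments above 8%. The 7 families of 2 genes keep nearly the same split in both genotypes, while in LHCB1 the segment of LHCB1.3 covers 57.0% in syd-5 and 68.8% in WT.

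Level and change were only loosely related. Across the 50 genes Spearman's rho between the WT value and the log2 change was -0.27, and across the 20 antenna genes it was -0.18. These are descriptions across genes, which share the same libraries, and the WT value enters both measures. By chromosome the median log2 change was 0.54 for 21 genes on chromosome 1, 0.65 for 8 on chromosome 2, 1.01 for 7 on chromosome 3, 0.55 for 9 on chromosome 4 and 0.55 for 5 on chromosome 5. Of the 10 genes with shared spans (LHCA4, LHCA5, LHCB1.5, LHCB3, LHCB4.2, LHCB6, PSAE2, PSAH1, PSBR and FNR1), 7 rose. The genes that share those spans were at most 59.7 FPKM on average over the genotypes, the highest being the neighbour of PSAE2.

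Other genes of the thylakoid were compared from lists of 36 genes. Of these 12 (33.3%) rose, 2 fell and 22 were not called, with a median log2 fold change of 0.27. Over all tested genes 14.1% rose and 18.0% fell. Among tested genes of at least 100 FPKM outside the set described above, 31.5% rose and 13.8% fell. The share of these 36 genes that rose lay near that of abundant genes in general. The 2 sets differ in level, since some of the 36 averaged below 100 FPKM, such as STN7 at 46.1 FPKM. The counts of the single lists rest on few genes and were not tested. Among 8 further subunits and carriers 3 rose, namely PSB27, a repair factor of photosystem II, with 721.3 FPKM in syd-5 and 437 FPKM in WT, as well as PSBTN and PETM. FD1, the minor leaf ferredoxin gene, was not called, with 602.3 FPKM in syd-5 and 629.5 FPKM in WT. Of 9 genes for cyclic electron flow, the NDH complex and PsbP-like proteins 2 rose, with PPL2, an NDH subunit, at 221.6 FPKM in syd-5 and 151 FPKM in WT, and NDHO. PGR5, a protein of cyclic flow, had 144.2 FPKM in syd-5 and 145.2 FPKM in WT. Of 8 genes for assembly and import of antenna proteins 4 rose, led by ALB3, an insertase for LHC proteins, with 378.8 FPKM in syd-5 and 269.3 FPKM in WT. HCF136, LPA1 and Y3IP1 rose too, while CAO (the cpSRP43 gene), CPSRP54 and CPFTSY, the targeting components for LHC proteins, were not called at log2 changes of 0.27 to 0.32.

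Of 5 genes for thylakoid phosphorylation and grana shape 3 rose, led by CURT1B, which bends the grana margins, with 776.4 FPKM in syd-5 and 522.7 FPKM in WT. CURT1A and the kinase gene STN8 rose as well, and STN7, the kinase that acts on LHCII, was not called, with 42.5 FPKM in syd-5 and 49.6 FPKM in WT. Among the 6 LHC-like genes, relatives of the antenna genes, 2 fell and none rose. ELIP1, an early light-induced protein of photoprotection, had 3.18 FPKM in syd-5 and 9.79 FPKM in WT and fell (log2 -1.62), and ELIP2 had 1.22 FPKM in syd-5 and 2.74 FPKM in WT and fell as well. OHP1, OHP2, LIL3.1 and LIL3.2 were not called. None of the 6 had an unadjusted p of at most 0.05 towards higher expression in the authors' deposited table.

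**Figure D5:**
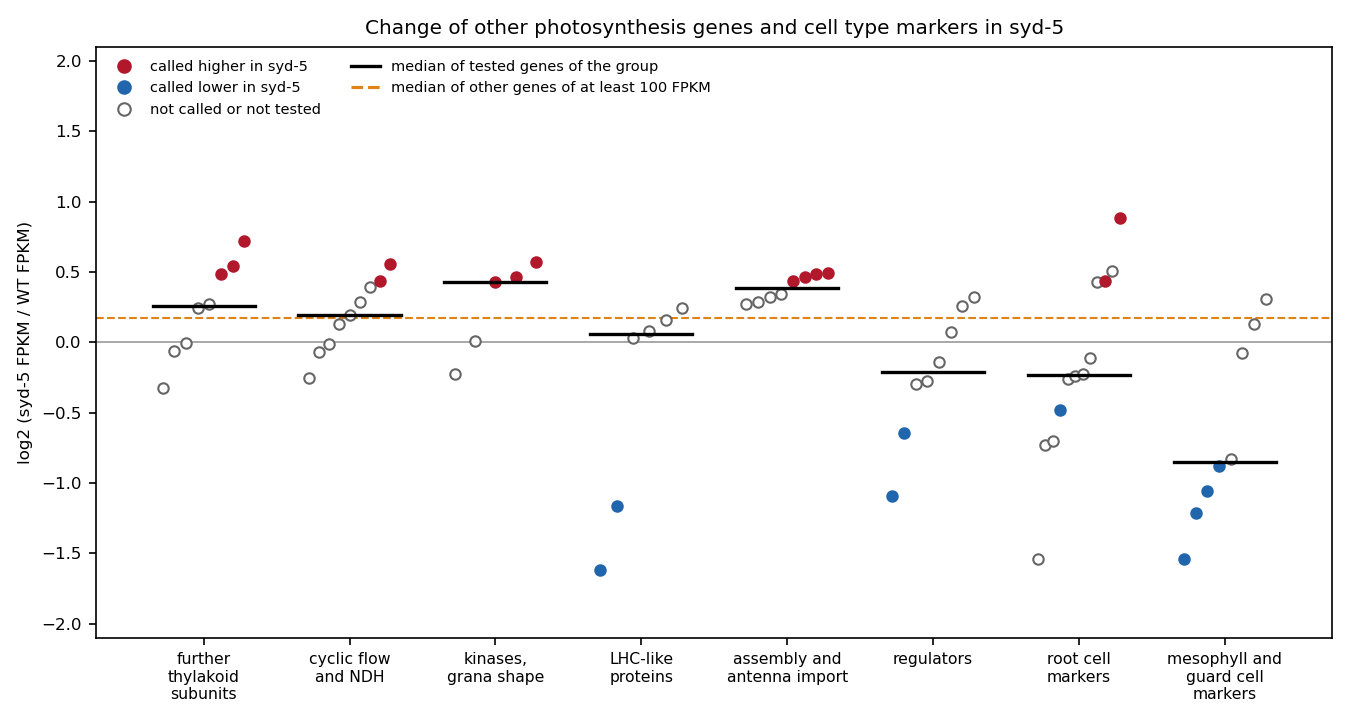
Log2 ratio of syd-5 to WT FPKM (y axis) for the other thylakoid gene lists, the regulators and the cell type markers, sorted within a list, filled red where called higher and blue where called lower, with each list's median over tested genes as a bar. The red points of assembly and antenna import lie between 0.43 and 0.49, and the blue points of the LHC-like list are ELIP1 at -1.62 and ELIP2 at -1.17.

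None of the 8 listed regulators was called higher. GLK1 and GLK2 encode transcription factors that activate genes for the antennae and chlorophyll synthesis. GLK1 had 49.5 FPKM in syd-5 and 60.7 FPKM in WT, and GLK2 had 41.9 FPKM in syd-5 and 39.7 FPKM in WT, and neither was called (q = 0.103 and 0.731 in the authors' deposited table). PIF3, which represses greening in the dark, had 11.6 FPKM in syd-5 and 24.8 FPKM in WT and fell (log2 -1.09). HY5, an activator of light-regulated genes, had 16.5 FPKM in syd-5 and 25.8 FPKM in WT and fell (log2 -0.64). PIF3 and HY5 were thus the only calls in this list, both lower, and the other 6 regulators had no call. Of all tested genes, 18.0% fell and 14.1% rose. The regulator counts rest on 8 genes and were not tested against these shares, so that no difference from them is claimed. GNC alone had an unadjusted p of at most 0.05 towards higher expression (p = 0.0331 in the authors' deposited table). Towards lower expression 3 had one, namely PIF3, HY5 and GLK1 (p = 0.03975 for GLK1 in the authors' deposited table).

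Markers of cell types were examined because whole seedlings hold green and non-green tissue. The mesophyll genes of the marker list, RBCS1A, RCA and GLDP1, summed to 12780 FPKM in syd-5 and 10714 FPKM in WT, and none of the 3 was called or had an unadjusted p of at most 0.05 by the authors' deposited table. RBCS1A, for the small subunit of Rubisco, had 9983 FPKM in syd-5 and 8061 FPKM in WT, and GLDP1, for a mitochondrial enzyme of photorespiration, had 687.8 FPKM in syd-5 and 725.5 FPKM in WT. Markers of the guard cell lineage were lower. Of 5, 4 fell (FAMA, KAT1, SDD1 and MYB60), none rose and SLAC1 was not called, all 5 ratios being below 1, and they summed to 34.7 FPKM in syd-5 and 68.9 FPKM in WT, with KAT1, a potassium channel gene, at 3.02 FPKM in syd-5 and 8.79 FPKM in WT. Among 12 root markers, 10 of them tested, 2 rose (SHR and PRP3), 1 fell (PHO1) and 7 were not called, and all 12 together summed to 41.8 FPKM in syd-5 and 44.9 FPKM in WT. Of all tested genes 14.1% rose and 18.0% fell, so that the counts of the root markers lay near these shares. The guard cell counts rest on 5 genes and were not tested. The part of tissue proportions in the rise of the photosynthesis genes was not tested.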

How the data were processed

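RNA-seq of 3 syd-5 and 3 WT libraries was compared by the authors, and their table was used as deposited. The submitters' processing notes name Bowtie2, TopHat2 (version 2.0.4), bedtools and the build TAIR10, with no role for each. The sources used here do not give the program behind the table. The authors' deposited expression values, 1 per genotype, were read as FPKM, which the file headers do not name, since they are not whole and their sums differ between genotypes. The p-value and q-value of each gene are the authors' deposited ones. Recomputing q by Benjamini-Hochberg from p over the 19868 tested genes gave the same q-values (largest difference 5.22e-07). The smallest p, 5e-05, is shared by 2831 genes, 20 of them members, so that q does not rank these. Whether the libraries of a genotype came from separate plants is not stated, and the spread behind the p-values may be technical. Depth is unknown.

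Log2 fold changes are syd-5 over WT FPKM with no pseudocount, computed with Python 3.11.15, pandas and numpy, and checked on simulated data. No test beyond the authors' was made. Start positions were raised by 1 to count from 1. A span counts as shared where it overlaps that of another listed gene. Symbols came from RefSeq (assembly TAIR10.1).

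The members and lists were chosen with earlier results of these data known. Every member is named. Values in both genotypes were required for the extremes of each complex, all paralogs and all genes not called. From other lists the rule named the called genes with the largest rise and fall, GLK1 and GLK2, and further names were chosen after their values were seen. Subgroups within complexes were also formed then. The mesophyll and guard cell markers were planned as a single list, and its split was not planned.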

Additional observations from a re-analysis of the deposited data

How the results depend on the processing

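The count of genes that rose was 27 to 40 under the alternatives (40 in the comparison as reported). Each alternative for the counts was a stricter limit or a part of the genes, so that a count could stay or shrink but not grow. That none fell under any of them was therefore fixed by the comparison as reported. A floor of 10 FPKM could remove no gene, the lowest average being 22.8 FPKM for LHCB2.3. The median log2 fold change ranged from 0.54 to 0.71. Without the LHCB1 and LHCB2 paralogs, 5 of the 6 genes left in the antenna of photosystem II rose (13 of 14 with them). The photosystem I count became 7 of 12 with a fold of at least 1.5. The photosystem II count became 3 of 10 at q of at most 0.01, 5 with q adjusted over all listed genes and 2 with a fold of at least 1.5. For carriers and ATP synthase it became 1, 1 and 0 of 8 under the same settings. The calls lost with q over all listed genes were those of PSAO, PSBO1, PSBS, PSBX, PETE1 and FD2. The median of the antenna of photosystem II was 1.102 as a mean and 0.75 without the LHCB1 and LHCB2 paralogs. The other 68 counts and medians of the set and its complexes moved by at most 1.5 times or 0.1, and 3 small counts of other lists fell below this at q of at most 0.01. The rescalings shift every median by -0.08 or 0.02, so that those among the 68 could not move by more than 0.1. Genes with shared spans left out, 33 of 40 rose.

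No paired analysis was possible because the table gives 1 value per genotype, and for the same reason leaving out each library was not run. The planned description of promoter and protein sequences was not run. Depth and spread per library are unknown, which limits most the calls near the threshold, such as LHCB4.3, PSAL and PSBP1.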
